A study of Mus musculus with 12 samples.

Results

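The 12 livers of the series differed widely in Cish, a gene that the growth hormone signal switches on within the hour, and the livers at the high end were compared here with those at the low end. The arrays were chosen by the measured value itself. An array was counted as Cish-high where the log2 signal of the Cish probe set was 9 or more (4 of 12 arrays) and as Cish-low where it was under 6 (5 of 12). The 3 arrays between these limits were left out of the test and are shown beside it. The groups are therefore not treatments, and a p-value below describes how a gene moved with the Cish class of 9 mice.

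All mice were male C57BL/6J, 4 to 5 months old, kept at 23 °C on standard chow, and labelled HET, that is heterozygous. Their sires were HET, and their dams were either wild type (WT, arrays 1 to 6) or lacked uncoupling protein 1 (UCP1-KO, arrays 7 to 12), so the HET genotype was shared by every mouse of both Cish classes and only the dam differed. One Affymetrix expression array was run per liver, with biotin-labelled total RNA. The labels give no hormone level, no time of day, no feeding state and no dam or litter for a mouse, so p-values measure only the spread between these mice.

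Growth hormone is released from the pituitary in pulses, which in male rodents are high and separated by long troughs. It binds the growth hormone receptor on hepatocytes, the receptor-bound kinase JAK2 phosphorylates the transcription factor STAT5B, and STAT5B enters the nucleus. Cish and Socs2 are STAT5 targets that feed back on the receptor, Onecut1 is a liver transcription factor that growth hormone induces, Bcl6 is a repressor that growth hormone lowers and that competes with STAT5 for DNA, and Igf1 is the secreted growth factor that carries much of the hormone's effect. The STAT recognition motif is a palindrome of TTC and GAA held apart by 3 bases.

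Cish itself is given as a description only, since it chose the arrays. Its log2 signal was 11.03, 9.40, 10.41 and 9.83 on the high arrays 1, 5, 6 and 12. On the low arrays 2, 3, 8, 9 and 10 it was 5.64, 5.79, 5.68, 5.73 and 5.15. The middle arrays 4, 7 and 11 had 7.71, 7.55 and 7.84. Nearest to the upper limit of 9 were array 5 at 9.40 inside it and array 11 at 7.84 outside it. Nearest to the lower limit of 6 were array 3 at 5.79 inside it and array 7 at 7.55 outside it. The low arrays were each below the median of the negative control probes, which averaged 6.26 ± 0.24 (SD, n = 5) over them. The classes were unevenly spread over the dams. Of the offspring of WT dams 3 were high, 1 middle and 2 low, and of the offspring of UCP1-KO dams 1 was high, 2 middle and 3 low, for which reason the dam genotype was a term of the fit.

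The window around the annotated start of Cish is shown because it carries the motif read by STAT5 in the gene that defined the classes. In RefSeq's promoter table (assembly GRCm38.p6, 250 bases before to 50 after each start), 2 motifs stood right behind the Cish start, at bases 1 and 12 from it, at chr9:107296654-107296683 on the plus strand. Capitals mark the motifs.
Cish: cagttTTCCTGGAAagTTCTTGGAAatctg
The motif searched was TTCNNNGAA, which reads the same on both strands. Of 32851 windows in the table, 2726 (8.30%) held it at least once and 150 (0.457%) held at least 2. A match is a run of letters and not a measured binding site.

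Dbp, an output gene of the circadian clock that swings widely over the day in liver, overlapped with the Cish classes in part. Its log2 signal was 13.41, 15.70, 14.44 and 15.72 on the high arrays 1, 5, 6 and 12, and 11.27, 11.89, 13.09, 14.60 and 11.07 on the low arrays 2, 3, 8, 9 and 10. Array 9, which was Cish-low, had more Dbp than arrays 1 and 6, which were Cish-high, so the ranges overlapped. The means were 14.82 ± 1.11 (SD, n = 4) and 12.39 ± 1.47 (SD, n = 5), with a two-sided exact permutation p of 0.0397 over 126 splits (smallest possible 0.00794). In the limma fit over all probe sets Dbp differed by 2.88 (95% interval 1.63 to 4.14) at an adjusted p of 0.1 and did not pass. Without array 9, the low array of highest Dbp, it passed (3.19, adjusted p 0.0123). The negative control median and the background controls gave no such gap, with exact permutation p of 0.659 and 0.46.

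**Figure D1:**
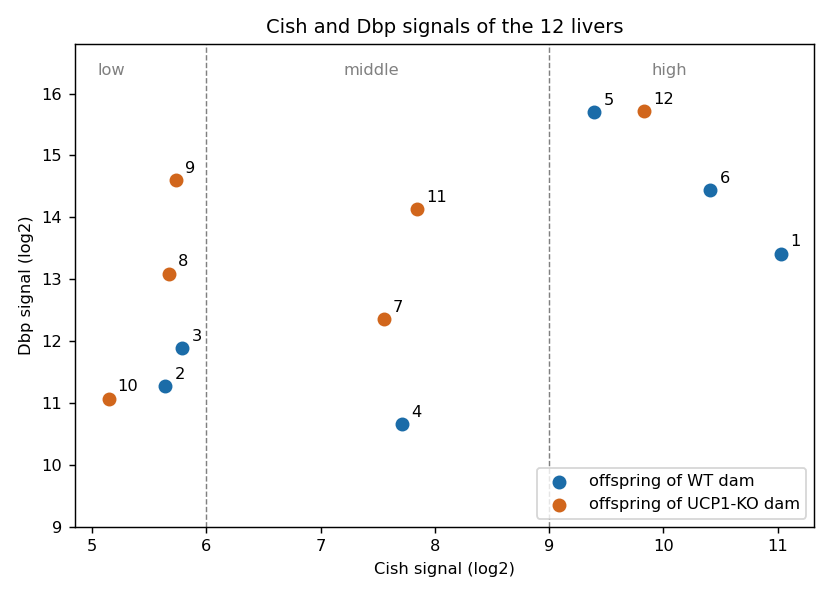
Log2 signal of Dbp (vertical) against log2 signal of Cish (horizontal) for the 12 livers, numbered by array and coloured by dam genotype, with dashed lines at the Cish limits of 6 and 9. The 4 Cish-high livers lie between 13.41 and 15.72 in Dbp, and Cish-low array 9 at 14.60 lies among them.

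Across the liver transcriptome a small group of genes followed the Cish class, led by the transcription factor Foxq1, the growth-signal gene Phlda1 and the kinase Plk3, the 3 of smallest p, on the high side and by the repressor Bcl6 on the low side. Of 22205 probe sets other than Cish, 22 (0.0991%) were higher and 8 (0.0360%) were lower in the Cish-high livers at a limma adjusted p under 0.05, together 0.135%. An unadjusted p under 0.05 was reached by 1069 (4.81%), of which 593 (2.67%) were higher and 476 (2.14%) lower, and the median difference of all probe sets was 0.004. The 30 that passed comprised 27 with a gene symbol, for 26 genes, and 3 unnamed probe sets; 29 of the 30 differed by at least 2-fold. In 29 of the 30 the ranges of the 2 classes did not overlap, against 388 (1.75%) of all probe sets. The sign was the same in all 30 among offspring of WT dams and among offspring of UCP1-KO dams. The 30 were chosen by their difference on these same arrays, so neither count is separate evidence. The count fell to 12 without array 12, the only high array from a UCP1-KO dam, to 13 without array 3 and to 18 without array 2. With the Dbp signal added to the fit 1 probe set (0.00450%) passed, which was Foxq1, while all 30 kept their sign. The differences themselves were as large or larger for 12 of the 30 in that fit, as for Bcl6 (-2.47), Arid5b (2.58) and Ppp1r3c (-2.66). They were more than 1.5 times smaller for 4, namely Pparg (0.60), Gm14403 (0.74), Alas1 (1.48) and 1 Nudt7 probe set (1.54).

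Of the 3 other genes that mark the hormone's action, Bcl6 was lower in the Cish-high livers, and Socs2 and Igf1 did not pass. The classes are for this reason named by Cish and not by a hormone pulse. Bcl6 stood at 9.64, 9.61, 9.26 and 9.24 on the high arrays 1, 5, 6 and 12 and at 12.07, 12.15, 10.26, 11.60 and 11.14 on the low arrays 2, 3, 8, 9 and 10. The ranges did not overlap, and the difference was -2.28 (95% interval -2.85 to -1.71, 4.85-fold lower, limma adjusted p 0.00174). The middle arrays 4, 7 and 11 had 8.62, 8.35 and 6.22, below every high array, so Bcl6 did not fall in step with Cish over the 3 classes. The difference was -2.60 among the offspring of WT dams and -1.76 among those of UCP1-KO dams.

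The Bcl6 windows are shown because this gene passed the test and holds the same motif as Cish. RefSeq lists 2 starts for Bcl6, both on the minus strand. The window of one start held 3 motifs, at -168, -122 and -88 from it, in chr16:23981353-23981461, and that of the other held 1, at -118, in chr16:23988951-23988980. Capitals again mark the motifs.
Bcl6, start with 3 motifs: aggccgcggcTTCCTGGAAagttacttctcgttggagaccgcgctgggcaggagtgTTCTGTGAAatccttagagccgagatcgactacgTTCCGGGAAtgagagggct
Bcl6, start with 1 motif: agcaaattagTTCTCAGAAttccagaggcc
Of the 32851 windows 11 (0.0335%) held at least 3 motifs. Of the 26 genes that passed, 19 were in the table and 3 of these held a motif, namely Bcl6, Arid5b and Alas1, where 9.55% of the 27025 genes in the table did. Onecut1 and Igf1 had windows without a match. Among genes that did not pass, Dbp held a motif in 1 of 1 window and Igfals in 2 of 3. The table had no window for Socs2, Foxq1, Phlda1 and Myc, so these genes were not searched.

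Socs2, the STAT5 target that most resembles Cish in function, had 11.69, 10.42, 12.72 and 11.98 on the high arrays 1, 5, 6 and 12. On the low arrays 2, 3, 8, 9 and 10 it had 12.77, 9.32, 11.81, 11.52 and 9.35. The highest value of all 9 was thus on a Cish-low array, and the difference was 0.76 with an interval of -0.69 to 2.21 (limma adjusted p 0.998), which spans both a fall and a more than 4-fold rise. Igf1 lay between 18.23 and 18.58 on the high arrays and between 18.16 and 18.53 on the low arrays. Its difference was 0.02 with an interval of -0.34 to 0.37 (limma adjusted p 0.998), so a difference of 1 log2 unit lay outside the interval in either direction.

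**Figure D2:**
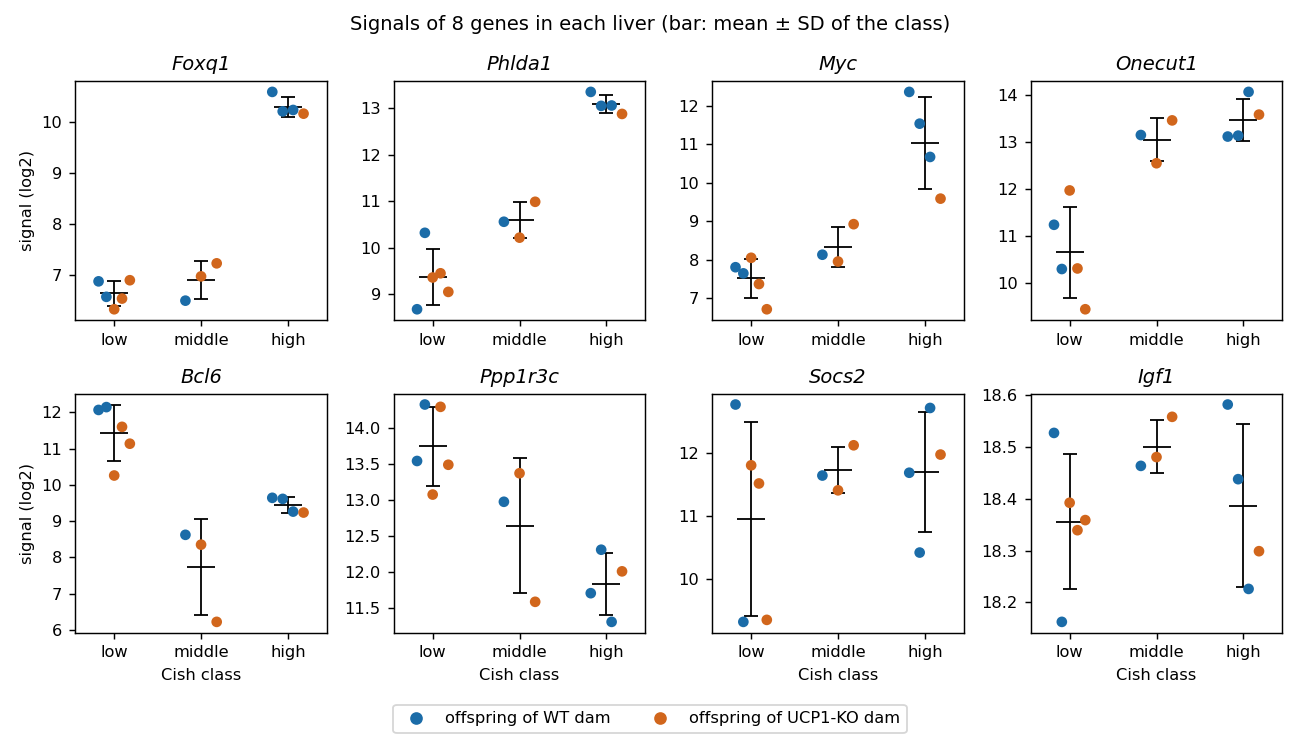
Log2 signal of 8 genes in every liver, by Cish class (low, middle, high) and coloured by dam genotype; the long bar is the class mean and the whiskers are 1 SD. Foxq1 is raised on the 4 high arrays, Phlda1 lies in between on the middle arrays, Onecut1 is at a like level on middle and high arrays, Bcl6 is lowest on the middle arrays, and Socs2 and Igf1 overlap between the classes.

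Among early growth hormone and STAT5 target genes the picture was divided: Myc and Onecut1 were higher, Bcl6 was lower and the other members did not pass. Of 29 listed genes other than Cish 24 were measured. At a limma adjusted p under 0.05, 2 were higher and 1 lower, where 0.0991% and 0.0360% of all probe sets were. The median difference was 0.22 beside 0.004 over all probe sets. The list was written with earlier results of these data known. Onecut1 encodes the homeobox factor HNF6, and its signals were 13.11, 13.13, 14.06 and 13.58 on the high arrays 1, 5, 6 and 12 and 11.24, 10.30, 11.97, 10.31 and 9.44 on the low arrays 2, 3, 8, 9 and 10. It was 6.96-fold higher (difference 2.80, 95% interval 1.90 to 3.70, limma adjusted p 0.0141). The middle arrays, at 13.14, 12.54 and 13.45, were all nearer to the high class. The call for Onecut1 was lost without array 3 or without array 12, where the adjusted p reached 0.29.

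Myc, the growth-promoting transcription factor, had 12.35, 11.53, 10.67 and 9.59 on the high arrays 1, 5, 6 and 12. On the low arrays it had 7.81, 7.65, 8.05, 7.37 and 6.72. It was 9.07-fold higher (difference 3.18, 95% interval 2.36 to 4.00, limma adjusted p 0.00187), and the lone high array from a UCP1-KO dam was the lowest of the high class. The middle arrays, at 8.13, 7.95 and 8.92, were all nearer to the low class, the opposite of Onecut1.

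Gadd45g, a stress-inducible growth arrest gene, was split within the high class. Arrays 1, 5 and 6 had 10.08, 9.84 and 9.94, whereas array 12 had 7.01, inside the low range of 6.24 to 7.55. Its difference of 1.74 (95% interval 0.98 to 2.50) had a limma adjusted p of 0.1 and did not pass. Without array 12 the difference was 2.62 and passed (adjusted p 0.00111), as it did without array 9 (1.87, adjusted p 0.0353). Array 12 ran against the difference and was the only high array from a UCP1-KO dam. The value of 2.62 is thus that among offspring of WT dams, and the smaller p-value follows from leaving array 12 out. Lepr, the leptin receptor, had a difference of -0.97 (-1.59 to -0.35, adjusted p 0.564). Egr1, an immediate early gene, spread over 9.18 to 14.30 on the high arrays and 9.19 to 14.14 on the low arrays, and its interval of -1.90 to 2.43 was the widest of the list.

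**Figure D3:**
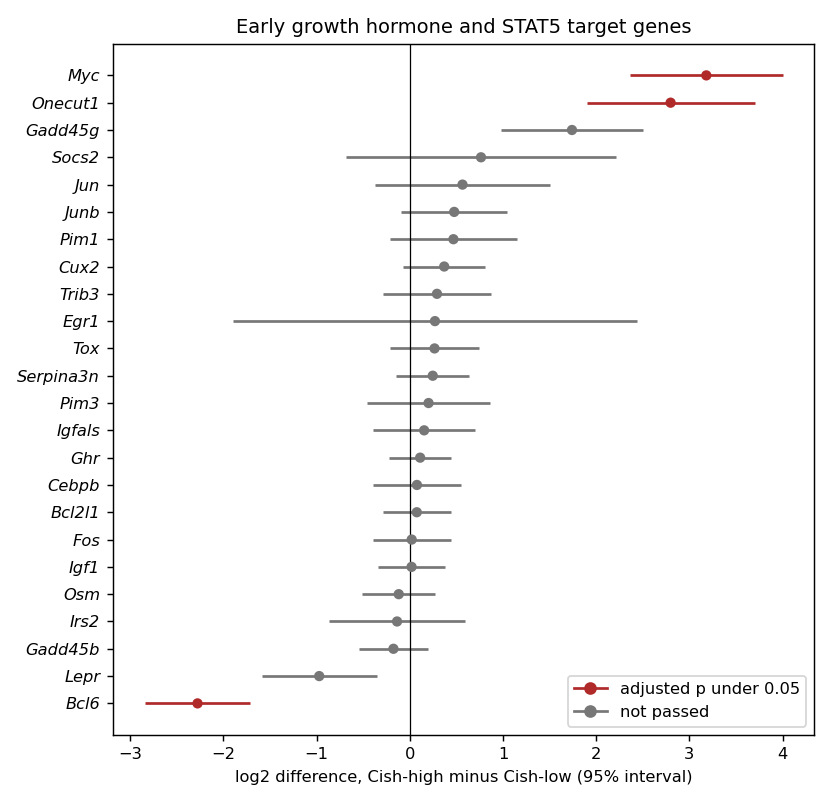
Difference in log2 signal, Cish-high minus Cish-low, with its 95% interval for the 24 measured early growth hormone and STAT5 target genes; red marks an adjusted p under 0.05. Myc and Onecut1 lie to the right and Bcl6 to the left, while most others, Igf1 among them, have intervals that include 0.

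The receptor and its signalling parts did not pass the test in either direction. Of 21 listed genes of the growth hormone receptor pathway 19 were measured, and none passed in limma. An unadjusted p under 0.05 was reached by 0 of them, where 4.81% of all probe sets did. Their differences ran from -0.54 to 0.33. Ghr, the receptor, differed by 0.11 (-0.22 to 0.45). Jak2 differed by -0.06 (-0.49 to 0.37) and Stat5b by 0.12 (-0.36 to 0.59). The SOCS family, the feedback inhibitors to which Cish belongs, had 7 other measured members, none of which passed; the lowest was Socs6 at -0.54 and the highest Socs2 at 0.76. Of 13 genes of the IGF system none passed either, and the largest difference was that of Igfbp1, a binding protein that insulin lowers, at -1.84 (-3.70 to 0.03, adjusted p 0.998).

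Foxq1, a forkhead transcription factor, had the smallest p-value of the comparison. It had 10.58, 10.20, 10.23 and 10.16 on the high arrays 1, 5, 6 and 12 and 6.88, 6.58, 6.34, 6.55 and 6.90 on the low arrays 2, 3, 8, 9 and 10, which is close to the negative control median and on array 3 just below it. The difference was 3.59 (95% interval 3.20 to 3.98, limma adjusted p 1.73e-07), set against a signal near background, where the scale is compressed. The middle arrays, at 6.50, 6.98 and 7.23, were like the low class. The difference was 3.61 among offspring of WT dams, 3.56 among offspring of UCP1-KO dams and 3.97 with Dbp in the fit (adjusted p 6.49e-05).

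Phlda1, a pleckstrin-homology-like protein tied to cell survival and growth factor signals, had 13.35, 13.05, 13.06 and 12.87 on the high arrays 1, 5, 6 and 12. Its low arrays lay between 8.68 and 10.32 and its middle arrays between 10.21 and 10.99, so middle arrays 4 and 11 were above every low array. The difference was 3.63 (95% interval 3.04 to 4.22, 12.4-fold, limma adjusted p 2.09e-05), and with Dbp in the fit it was 3.34 at an adjusted p of 0.0715. Plk3, a stress-responsive polo-like kinase, was 5.60-fold higher (difference 2.49, 1.98 to 3.00, adjusted p 0.000304), with 10.61 to 11.40 on the high and 7.92 to 8.84 on the low arrays. Of its middle arrays, array 11 at 10.35 was near the high class and array 4 at 7.77 was below the low class.

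Arid5b, a DNA-binding protein that acts in fat and liver metabolism through a histone demethylase, was 5.08-fold higher (difference 2.34, 1.79 to 2.90, limma adjusted p 0.00102). It had 15.41, 15.14, 15.96 and 16.05 on the high arrays 1, 5, 6 and 12 and 13.02 to 14.07 on the low arrays. The middle arrays, at 14.45 to 15.18, bridged the gap.

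Nudt7, a peroxisomal enzyme that degrades coenzyme A, was measured by 3 probe sets that disagreed. Both probe sets that the array design had not placed on a chromosome were higher, by 2.35 (1.75 to 2.94, limma adjusted p 0.00183) and by 1.78 (1.36 to 2.20, adjusted p 0.00102). The probe set with a chromosome in its identifier, the brightest of the 3, differed by 0.20 (-0.31 to 0.71, adjusted p 0.998). Which of them follows the gene's main transcript was not tested, so the direction of Nudt7 is uncertain.

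The remaining genes with large gains were less alike in function. Resf1, which takes part in silencing retroelements, was 2.92-fold higher (difference 1.54, limma adjusted p 0.00532), with 11.54 to 12.26 on the high arrays and 10.19 to 11.30 on the low arrays. The uncharacterised 1700018L02Rik was higher by 1.96 (adjusted p 0.00187), against a signal below the negative control median on 4 of the 5 low arrays. Chac1, which breaks down glutathione, was higher by 1.28 (adjusted p 0.0128), yet its signals of 5.66 to 6.24 on the high and 4.49 to 4.88 on the low arrays were below the negative control median in both classes. Zyg11a, Foxa1, Pparg, Sly and Gm14403 also passed, with differences of 1.75, 1.29, 1.33, 1.41 and 1.33; these 5 are named after their values were seen, and Zyg11a was below the negative control median on 3 of the 5 low arrays. Foxa1 is a pioneer factor of liver genes and Pparg a regulator of fat storage. Sly lies on the Y chromosome, where it belongs to a family of near-identical copies.

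Leaving out each of the 9 arrays in turn sorted these genes. Foxq1, Phlda1, Plk3, Arid5b, Bcl6, Myc, both Nudt7 probe sets and 1700018L02Rik passed every time. Resf1 was lost without array 12 (limma adjusted p 0.0639), and Chac1 without array 3 or array 12 (up to 0.351). For the 22 named probe sets that passed, no such omission moved the difference by more than 1.5 times.

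Several enzymes of glucose, lipid and haem metabolism followed the Cish class. G6pc, the enzyme that releases free glucose in the last step of gluconeogenesis and glycogen breakdown, was 2.12-fold lower in the Cish-high livers, and Ppp1r3c, which brings a phosphatase to glycogen, was 3.87-fold lower. Lpin1, a phosphatidate phosphatase of triglyceride synthesis, was 2.81-fold higher, and Alas1, which makes the first committed precursor of haem, was 5.50-fold higher. Ces3b, a liver carboxylesterase, was 2.17-fold higher.

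Ppp1r3c had 11.70, 12.30, 11.30 and 12.00 on the high arrays 1, 5, 6 and 12 and 13.54, 14.33, 13.07, 14.29 and 13.49 on the low arrays 2, 3, 8, 9 and 10. The ranges did not overlap, and the difference was -1.95 (95% interval -2.57 to -1.33, limma adjusted p 0.0137). G6pc had 15.60, 15.34, 15.20 and 14.41 on the same high arrays and 16.34, 16.38, 15.53, 15.89 and 15.56 on the low arrays. It was the only probe set of the 30 whose classes overlapped, since array 1 exceeded arrays 8 and 10; within the fit, which allows for the dam, it differed by -1.08 (-1.45 to -0.72, adjusted p 0.0166).

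Lpin1 had 12.60, 12.54, 11.88 and 12.81 on the high arrays and 11.12, 10.92, 10.53, 11.52 and 11.11 on the low arrays, a difference of 1.49 (0.99 to 1.99, limma adjusted p 0.0165). Alas1 had 16.09, 15.16, 15.68 and 15.92 on the high arrays and 12.49, 14.48, 12.88, 14.06 and 12.01 on the low arrays, a difference of 2.46 (1.52 to 3.40, adjusted p 0.0431). The middle arrays of Alas1 were as high as the high class, at 16.26, 16.03 and 15.27. Ces3b had 16.75 to 17.42 on the high and 15.58 to 16.01 on the low arrays, a difference of 1.12 (0.75 to 1.48, adjusted p 0.0153). These calls depended on single arrays: G6pc was lost without array 2, 3, 5, 6 or 12, Lpin1 without 1, 2, 3, 5 or 12, Alas1 without 1, 2, 5, 6, 8 or 12, Ces3b without 2, 3 or 12, and Ppp1r3c without 3 or 12.

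Of the wider metabolic lists 1 held calls. Among 21 measured fasting and gluconeogenic genes 1 was higher (Lpin1) and 1 lower (G6pc), where 0.135% of all probe sets passed, and the median was -0.04. Pck1, the gluconeogenic carboxykinase, differed by -0.81 (-1.32 to -0.30, limma adjusted p 0.558), and Pdk4, a kinase that spares glucose in fasting, by -0.70 (adjusted p 0.633). Of 21 feeding and lipogenic genes none passed and the median was 0.28; at an unadjusted p under 0.05 there were 6 higher and 1 lower, where 2.67% and 2.14% of all probe sets were. Pklr, liver pyruvate kinase, had 15.10, 15.29, 15.04 and 14.24 on the high arrays and 13.03, 13.96, 11.26, 13.37 and 10.77 on the low arrays. Its difference of 1.95 (1.04 to 2.87) did not pass, at a limma adjusted p of 0.166. Without array 9 it was 2.21 and passed (adjusted p 0.006). Array 9 had the highest Pklr of the low arrays from UCP1-KO dams, so the smaller p-value follows from leaving it out.

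Cholesterol synthesis genes had the highest median of the lists. All 17 measured of 22 listed genes were above 0 on the difference scale, where 50.7% of all probe sets were, and the median was 0.52. None passed in limma, and 10 were higher at an unadjusted p under 0.05, where 2.67% of all probe sets were. Idi1, which interconverts the isoprenoid building blocks, differed by 0.70 (0.31 to 1.09, adjusted p 0.352), and Hmgcs1, which makes the precursor of mevalonate, by 0.59 (0.23 to 0.95, adjusted p 0.5). Hmgcs1 did not overlap between the classes, at 16.04 to 16.75 on the high and 15.58 to 15.92 on the low arrays. As a mean deviation of the list from its average over all 12 arrays, the high arrays 1, 5, 6 and 12 had 0.68, 0.44, 0.12 and -0.03. The low arrays 2, 3, 8, 9 and 10 had -0.16, -0.05, -0.71, -0.38 and -0.35. The middle arrays 4, 7 and 11 had -0.26, 0.26 and 0.44, so arrays 7 and 11 were above high arrays 6 and 12. The genes of such a pathway move together, so their count is not a count of independent observations.

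**Figure D4:**
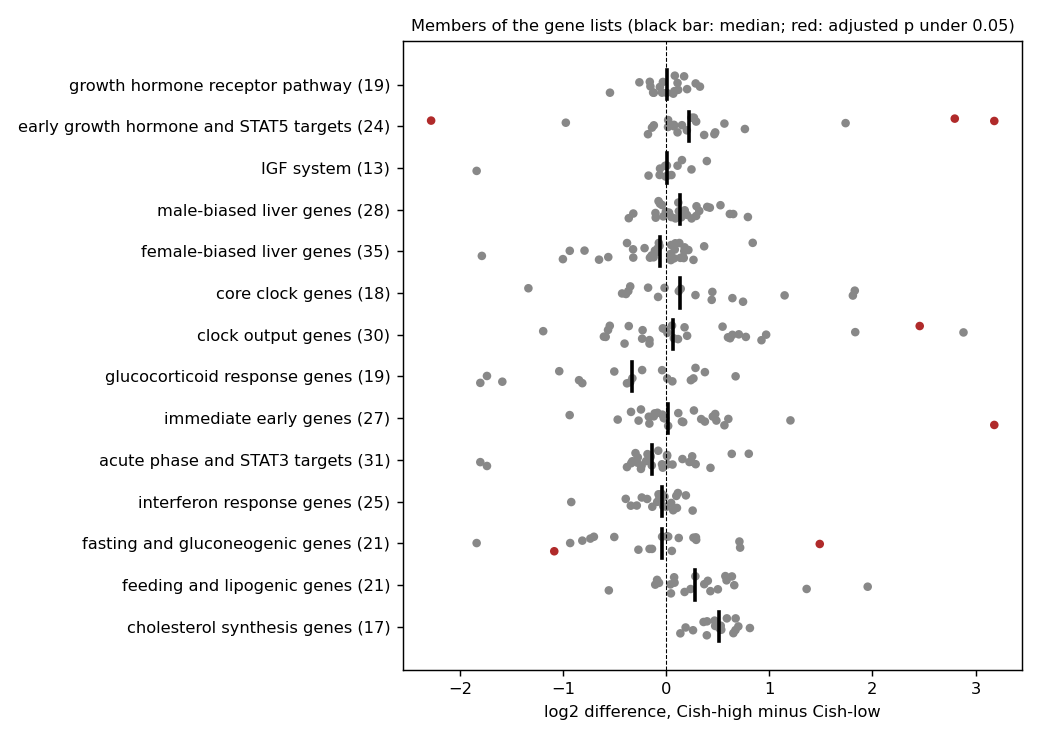
Differences in log2 signal, Cish-high minus Cish-low, of the members of 14 gene lists (number measured in brackets); each point is a gene, black bars are medians and red marks an adjusted p under 0.05. The cholesterol synthesis genes all lie right of 0 with none in red, and the receptor pathway genes lie between -0.54 and 0.33.

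Besides Bcl6, Ppp1r3c and G6pc, the lower genes comprised regulators with separate roles. Prox1, a homeobox factor of the liver, had 12.60 to 13.16 on the high arrays and 13.74 to 14.31 on the low arrays, a difference of -1.21 (-1.60 to -0.82, limma adjusted p 0.0146). Noct, a rhythmic phosphatase of nicotinamide dinucleotides, had 5.06, 5.49, 4.67 and 5.66 on the high arrays 1, 5, 6 and 12, below the negative control median of those arrays. On the low arrays 2, 3, 8, 9 and 10 it had 6.07, 7.94, 9.06, 8.27 and 9.24, of which that on array 2 was also below its negative control median. Its difference was -2.42 (-3.22 to -1.61, adjusted p 0.0159), with the high class at background. Sik1, a kinase that restrains the fasting response of CREB target genes, differed by -1.53 (adjusted p 0.0199). Plk2, a polo-like kinase, differed by -1.17 (adjusted p 0.0153), opposite to its relative Plk3. Cnksr3, a scaffold of sodium transport signalling, differed by -0.98 (adjusted p 0.0237). Each of these 5 calls was lost without array 3 and without array 12, and the highest adjusted p over all omissions ranged from 0.167 for Prox1 to 0.5 for Cnksr3.

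Many clock genes differed between the Cish classes at the unadjusted level. Of 18 core clock genes none passed in limma over all 9 arrays; at an unadjusted p under 0.05, 3 were higher and 2 lower, where 2.67% and 2.14% of all probe sets were. Per3, a repressor arm gene, differed by 1.83 (adjusted p 0.352), Bhlhe41 by 1.81 (adjusted p 0.382), and Arntl, the activator known as BMAL1, by -1.33 (-2.15 to -0.52, adjusted p 0.509). Of 30 clock output genes 1 passed, which was Alas1, where 0.135% of all probe sets did. An unadjusted p under 0.05 was reached by 14, 9 of them higher and 5 lower, beside the same 2.67% and 2.14%. Nfil3, which opposes Dbp at the same DNA sites, differed by -1.19 (-1.77 to -0.62, adjusted p 0.187).

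One Cish-low mouse stood apart in its clock genes. Array 9 was Cish-low at 5.73, yet its Arntl was 7.96, where the other low arrays had 9.93 to 10.56 and the high arrays 8.14 to 9.42. Its Nfil3 was 7.70, where the other low arrays had 8.92 to 9.07, and its Bhlhe41 was 8.15, where they had 5.51 to 5.81. For Nfil3, Bhlhe41 and Dbp, array 9 thus lay inside the range of the Cish-high arrays, and for Arntl it lay below all of them. Without array 9 the count of probe sets that passed rose from 30 to 42. Among the named clock genes, those that then passed were Arntl (-1.60, limma adjusted p 0.00428), Nfil3 (-1.36, adjusted p 0.00535), Dbp (3.19, adjusted p 0.0123) and Bhlhe41 (2.08, adjusted p 0.0266). Array 9 was the low array that ran against the difference in these same genes, so the smaller p-values follow from leaving it out. The part of time of day in the genes that followed the Cish class was not tested, since no label gives it.

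**Figure D5:**
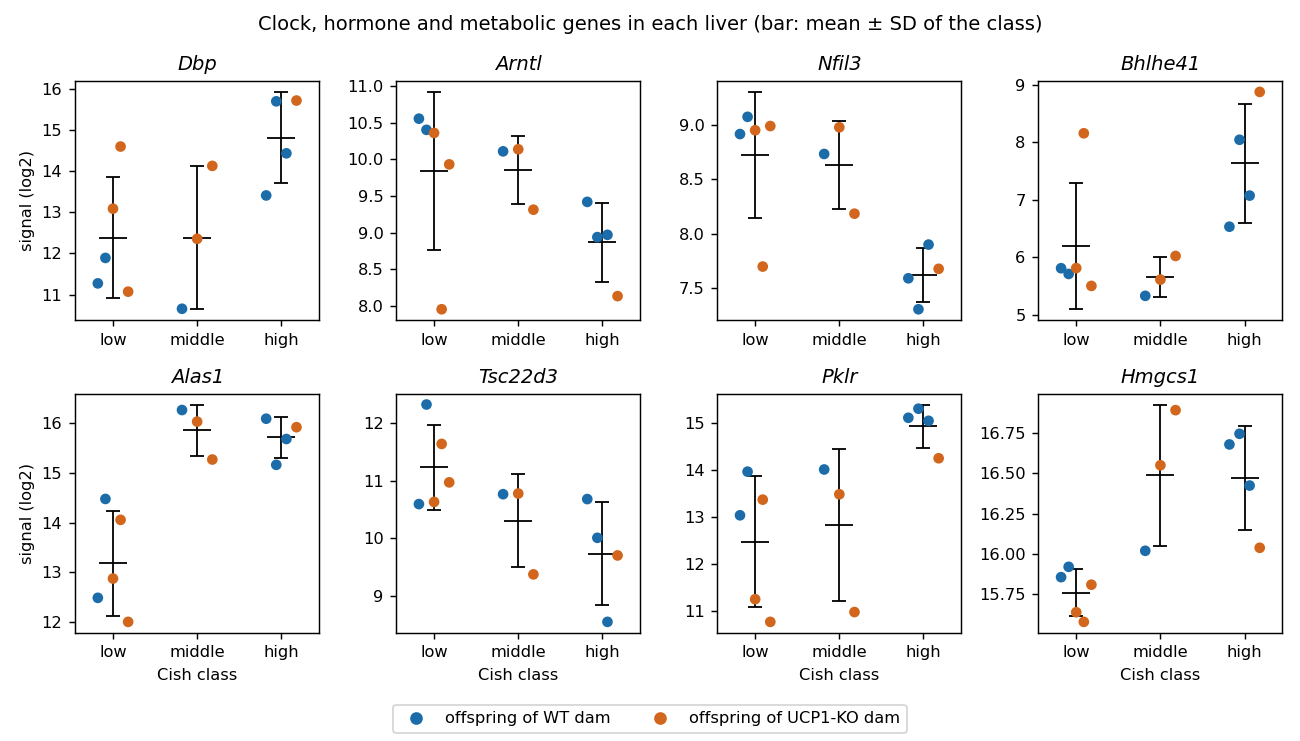
Log2 signal of clock, glucocorticoid and metabolic genes in every liver, by Cish class and coloured by dam genotype; the long bar is the class mean and the whiskers are 1 SD. One Cish-low liver, array 9, lies within the high class for Dbp, Nfil3 and Bhlhe41 and below it for Arntl, and Alas1 is as high on the middle as on the high arrays.

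The 3 middle arrays took no part in the test. On average they lay between the classes for most probe sets that passed, though genes differed in the class they were nearer to. Of the 30 probe sets that passed, the mean of the middle arrays lay between the class means for 27. All 3 middle arrays were nearer to the low class for 7, among them Foxq1, Phlda1, Myc, Chac1 and Resf1. All 3 were nearer to the high class for 3, which were Onecut1, Alas1 and Bcl6, and the other 20 were mixed. When Cish was used as a continuous value over all 12 arrays, 23 probe sets passed in limma, of which 21 were among the 30.

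Among the lists of other signals that reach the liver 1 gene passed the test, which was Myc. Of 19 glucocorticoid response genes none passed and the median was -0.33; Tsc22d3, the glucocorticoid-induced leucine zipper, differed by -1.59 (-2.50 to -0.68, limma adjusted p 0.419), and at an unadjusted p under 0.05 there were 1 gene higher and 5 lower, where 2.67% and 2.14% of all probe sets were. Of 27 immediate early genes Myc, which is also a listed growth hormone target, was the only one to pass. Over all probe sets 0.135% passed. The median of these 27 genes was 0.02. Of 31 acute phase and STAT3 target genes none passed; Steap4, an inflammation-induced metalloreductase, differed by 0.80 (0.43 to 1.18, adjusted p 0.166). Of 25 interferon response genes none passed, and the median was -0.04.

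The sex-biased liver genes, whose levels depend on the long-term pattern of growth hormone, did not pass in either direction when each was counted by its brightest probe set. Nudt7 is on the male-biased list, and 2 of its 3 probe sets were higher, but not the brightest. Of 28 measured male-biased genes the median difference was 0.14 and 1 had an unadjusted p under 0.05. Of 35 female-biased genes the median was -0.06, with 1 higher and 2 lower at that level. Of all probe sets 2.67% were higher and 2.14% lower at that level, so counts this small are not read as a result about either list. Cyp17a1, a steroid hydroxylase, had the largest difference of these, at -1.79 (-3.24 to -0.33, limma adjusted p 0.948).

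The tissue label was borne out by the hepatocyte markers, with Alb, Ttr and Apoa1 at 18.84 or more on all 9 arrays and a list median of 0.08. Array 3 was the lowest of the 9 for each of these genes (19.24, 18.97 and 18.84). It also had the highest negative control median of the 9, at 6.59. Whether this bears on the calls lost without array 3 was not tested. All 7 measured Kupffer cell markers had differences below 0 without passing (median -0.32), but the median was -0.54 with WT dams and 0.11 with UCP1-KO dams, and their summed level spanned 12.96 to 13.31 on the high and 12.79 to 14.23 on the low arrays. For the 4 cholangiocyte markers the summed level was 8.85 to 9.33 on the high and 9.34 to 10.35 on the low arrays, with 2 of the 4 below the negative controls. That sum was carried mainly by Sox9, the brightest of the 4 (class means 8.67 and 9.38), which differed by -0.84 (limma adjusted p 0.633). The other markers did not share a direction, with Krt19 at -0.33, Epcam at -0.02 and Krt7 at 0.28. The markers of T and NK cells (5 of 5), B cells (3 of 3) and neutrophils (4 of 4) were all below the negative controls. The part of the Kupffer cell and cholangiocyte markers in the results above was not tested. In whole liver, fewer cells of a type and less RNA per cell cannot be told apart.

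Whether the difference between Cish-high and Cish-low livers depended on the dam was tested by an interaction term, which rests on 1 high array from a UCP1-KO dam. In limma 0 of 22205 probe sets (0%) passed, with a smallest adjusted p of 0.954, and 610 had an unadjusted p under 0.05. Among the genes that passed, Myc differed by 3.79 with WT dams and 2.21 with UCP1-KO dams, and Noct by -1.93 and -3.20. Phlda1 differed by 3.65 and 3.59.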

How the data were processed

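Liver total RNA of 12 mice was measured on 1 array each. The deposited log2 values, 1 per probe set and array, were made by the authors; per the submitters' processing notes, RMA and the program Transcriptome Analysis Console were used, and versions and the RMA variant are not given in the sources used here. RMA evens out the arrays' distributions and compresses dim signals. No batch, slide or litter is named in the labels. The number of arrays limits the precision.

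The 6640 control rows were left out, and Cish was left out of the test, leaving 22205 probe sets with no filter on dim signal. GEO's platform annotation gave 1 symbol to 19572 of the 22206 non-control probe sets. The other 2634 had no single symbol and were counted as unnamed. Where a list gene had several probe sets, the brightest was counted.

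All probe sets entered a limma 3.58.1 fit in R 4.3.3 (Cish class plus dam genotype, 9 arrays, 6 residual degrees of freedom, two-sided, Benjamini-Hochberg over all probe sets). Adjusted p-values of single genes come from this fit. It was tested on simulated data.

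Named were Cish, Socs2, Bcl6, Igf1, Dbp and the measured growth hormone lists, the probe sets with a symbol that passed (12 of smallest p per direction) and up to 4 members of smallest p of each other list. The classes, members and lists were chosen with earlier results of these data known. Alternatives included other covariates, normalizations, Cish as a continuous term, each dam genotype alone and leaving out each array. Promoter windows were from RefSeq (GRCm38.p6).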

Additional observations from a re-analysis of the deposited data

Results flagged for a closer look

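Signals were screened for single arrays that stood apart from the others of their Cish class by Dixon's test. Of 276 groups of 4 or 5 arrays 16 had such an array, and chance alone gives about 1 in 20.

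Among growth hormone genes, Gadd45g on Cish-high array 12 was 7.01, where the other high arrays had 9.84 to 10.08. Foxq1 on high array 1 was 10.58 against 10.16 to 10.23, a small gap in a tight group. Socs6 on high array 1 was 8.31 against 7.14 to 7.18, and Igfals, the acid-labile partner of IGF1 in blood, on low array 10 was 11.06 against 11.90 to 12.20. Ptpn11 on low array 3 was 8.52 against 9.20 to 9.39, Gadd45b on low array 3 was 5.35 against 5.64 to 5.71, and Cebpb on low array 9 was 7.06 against 6.50 to 6.64. Osm, whose signal is below the negative controls, was 3.91 on high array 5 against 3.31 to 3.38 and 3.85 on low array 3 against 3.42 to 3.50.

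The clock genes of low array 9 stood apart together, with Bhlhe41 at 8.15 against 5.51 to 5.81, Arntl at 7.96 against 9.93 to 10.56 and Nfil3 at 7.70 against 8.92 to 9.07. Among the other genes, Krt7 on low array 9 was 7.05 against 6.07 to 6.23, Cxcl9 on high array 12 was 9.83 against 8.49 to 8.68, Ifit2 on low array 2 was 6.51 against 5.59 to 5.76, and Alb on low array 3 was 19.24 against 19.64 to 19.72.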

How the results depend on the processing

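The classes come from a measured value, hold 4 and 5 arrays and share only 1 Cish-high array from a UCP1-KO dam, which limits every count. The count of 30 probe sets that passed became 1 with the Dbp signal in the fit, 14 within offspring of WT dams and 3 within offspring of UCP1-KO dams. Leaving out 1 array gave 12 to 42. Other settings gave 35 without the dam term, 30 with the negative control median in the fit, 28 with all 12 arrays in 3 classes, 23 with Cish as a continuous value, 27 after quantile normalization, 29 after median centring, 30 with the dimmer 50% of probe sets left out, 28 with a variance trend and robust estimation, and 21 without arrays 8 and 10, a setting chosen after seeing the data. The interaction with the dam gave 0 to 1 when 1 array was left out, the 1 being without array 9, and could not be fitted without array 12. Over 2826 values of single genes, 0 of the called ones changed sign, 121 fell out of the calls and 8 entered them. A further 147 values, of genes called in neither fit, changed sign. Of 501 list medians 19 moved by more than the spread. The cause of these losses was not tested. Dim genes such as Chac1, Noct and Osm are limited by a signal near or below the negative controls. No paired analysis was possible because the array numbers run from 1 to 12 and 0 are shared between the dam groups.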

Other observations

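Probe sets of the Y chromosome, read from their identifiers, leaned one way. Of 219 such probe sets 2 passed in limma, both higher in the Cish-high livers, and at an unadjusted p under 0.05 there were 39 higher and 0 lower, where 2.67% and 2.14% of all probe sets were. Of the 39, 30 had a mean signal above the negative controls. Sly had 11.73, 11.11, 11.17 and 11.30 on the high arrays 1, 5, 6 and 12 and 9.58, 10.12, 10.16, 9.44 and 10.41 on the low arrays 2, 3, 8, 9 and 10. All mice were male, and these genes exist in many near-identical copies whose signals the probes may share, so the probe sets are not independent observations. No explanation was tested.

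Mt1, a metallothionein that metals and glucocorticoids induce, varied within the Cish-low class more than between the classes. It had 16.2, 10.9, 14.9, 11.3 and 14.5 on the low arrays 2, 3, 8, 9 and 10 and 11.4 to 12.1 on the high arrays, and its difference of -1.74 had an interval of -3.65 to 0.18. On middle array 11 Mt1 was 16.7 and Cyp17a1 was 15.1, the highest value of the 12 mice for each.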
